A study of Mus musculus with 4 samples.

Results

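Meg3 and the Dlk1-Dio3 imprinted domain were followed in droplet single-cell RNA libraries from the glomeruli of mice, the capillary tufts in which the kidney filters blood. The genes described are Meg3, Rian, Mirg, Dlk1 and B830012L14Rik, 5 of the 52636 genes in the matrices, found by their symbols. They had been picked from these data for their restriction to 1 cell type, for their levels in young against aged libraries, and for their detection together in single endothelial barcodes. Those 3 features are therefore given as values, with no test. The 2 young and 2 aged libraries came from kidneys of mice labelled only as young or aged, with no treatment, in which beads perfused through the vessels lodged in glomeruli and let these be pulled out with a magnet. The labels state no strain, sex, genotype or age in months, and do not say that replicates came from separate animals, so p-values measure only the spread between these 4 samples. Xist, the female-specific RNA, had 1 to 8 UMIs per library and the Y-linked Ddx3y 3101 to 5863.

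In the Dlk1-Dio3 domain the 2 parental chromosomes are used differently. The protein-coding genes Dlk1, Rtl1 and Dio3 are expressed from the paternal copy, and the noncoding RNAs Meg3, Rian and Mirg from the maternal copy, under the control of a differentially methylated region between Dlk1 and Meg3. Meg3 is a long noncoding RNA that has been linked to polycomb repression and to growth control, Rian carries small nucleolar RNAs, and Mirg spans a large group of microRNAs. Dlk1 encodes a transmembrane relative of the Notch ligands, known from fat and endocrine cells and from the fetus, and Rtl1 a retrotransposon-derived protein needed for fetal capillaries of the placenta. Endothelial cells of the glomerulus form the fenestrated inner wall of its capillaries.

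All 5 genes lie on the plus strand of chromosome 12 (GRCm38, positions from GENCODE vM21). Dlk1 spans 109452823 to 109463336, Meg3 109541001 to 109571726, Rian 109603940 to 109661716, B830012L14Rik 109695586 to 109702587 and Mirg 109729764 to 109749460. The interval from the start of Dlk1 to the end of Mirg, 296638 bp, held 104 genes of the matrices. Only 8 of these had at least 100 UMIs over all barcodes: the 5 genes above, Rtl1 on the minus strand (109589193 to 109600330), the unclassified transcript Gm37899 (109668869 to 109677585), and Gm26945 (109640341 to 109642351), which lies within Rian on the same strand and is uncertain for that reason. Rtl1 overlaps antisense transcripts of the locus, and the strand setting of the counting is not given in the sources used here. A library built from polyadenylated 3' ends does not read microRNAs, and the 93 genes of small RNAs in the interval had 16 UMIs in all.

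The microRNAs carried by these long RNAs are shown because the domain is best known for them, although this assay measured only their host transcripts. RefSeq (GRCm38.p6) placed 60 microRNA genes in the interval, 57 of them on the plus strand, giving 111 mature sequences. Of the genes, 2 lay within Meg3, 3 within Rian, 14 within Mirg, 24 between B830012L14Rik and Mirg, 6 within Rtl1 on the opposite strand and 11 elsewhere. The mature sequences held 102 different seeds, the bases that pair with a target, and 9 seeds were shared by 2 sequences each. Sequences are written 5′ to 3′ with the seed, bases 2 to 8, in capitals. They are 1 sequence hosted by Meg3 and 4 pairs with a common seed, which join a microRNA of Rian with one outside it, 2 of Mirg with each other, one of Mirg with one between B830012L14Rik and Mirg, and 2 of that stretch.
mmu-miR-770-5p (in Meg3): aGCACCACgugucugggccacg
mmu-miR-370-5p (in Rian): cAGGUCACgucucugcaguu
mmu-miR-1193-3p (between B830012L14Rik and Mirg): uAGGUCACccguuuuacuauc
mmu-miR-453 (in Mirg): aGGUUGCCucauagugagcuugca
mmu-miR-496a-5p (in Mirg): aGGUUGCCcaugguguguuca
mmu-miR-410-5p (in Mirg): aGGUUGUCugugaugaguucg
mmu-miR-494-5p (between B830012L14Rik and Mirg): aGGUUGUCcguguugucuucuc
mmu-miR-379-3p (between B830012L14Rik and Mirg): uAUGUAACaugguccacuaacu
mmu-miR-411-3p (between B830012L14Rik and Mirg): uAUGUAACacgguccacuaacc

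The promoters of Meg3 and Dlk1 are shown because the 2 genes, on either side of the region that controls the imprint, were distributed differently over cells. Each window of 300 bases runs from 250 before to 50 after the RefSeq start (GRCm38.p6, plus strand), at chr12:109540746-109541045 for Meg3 and at chr12:109452573-109452872 for Dlk1. Capitals mark matches, searched on both strands, to the TATA box (TATAAA), the CCAAT box, the cAMP response element (TGACGTCA), the GC box recognised by Sp factors (GGGCGG), the E-box (CACGTG) and the core motif recognised by Ets factors (CCGGAA). The Meg3 window had 5 matches: 2 overlapping TATA boxes in opposite orientations, 1 CCAAT box, 1 cAMP response element and, next to the CCAAT box on the other strand, 1 Ets motif. The Dlk1 window had 0 matches to any of the 6 motifs. RefSeq gives Meg3 a further start, whose window (chr12:109545148-109545447) is not printed. That window also had 0 matches, with 1 CpG and 50.3% GC. Over 32851 RefSeq promoter windows of this length, 13.6% held a TATA box, 37.4% a CCAAT box, 1.79% the cAMP response element, 35.7% the GC box, 7.15% the E-box and 14.9% the Ets motif. The printed Meg3 window had 13 CpG and 53.7% GC, the Dlk1 window 9 CpG and 55.7% GC. The medians over all windows were 7 CpG and 52.7% GC.
Meg3: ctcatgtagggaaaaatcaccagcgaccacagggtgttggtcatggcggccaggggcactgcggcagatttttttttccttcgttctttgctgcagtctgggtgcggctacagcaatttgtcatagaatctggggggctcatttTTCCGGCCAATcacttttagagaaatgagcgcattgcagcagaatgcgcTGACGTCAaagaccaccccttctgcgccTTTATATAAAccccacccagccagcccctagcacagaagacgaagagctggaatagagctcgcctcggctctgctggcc
Dlk1: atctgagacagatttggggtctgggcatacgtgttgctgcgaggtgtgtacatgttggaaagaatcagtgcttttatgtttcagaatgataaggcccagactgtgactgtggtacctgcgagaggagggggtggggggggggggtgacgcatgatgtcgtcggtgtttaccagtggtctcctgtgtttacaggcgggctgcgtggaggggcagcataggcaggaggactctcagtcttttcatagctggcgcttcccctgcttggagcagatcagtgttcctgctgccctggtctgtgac

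The 4 libraries held 18457791 to 42046542 UMIs (unique molecular identifiers, counted RNA molecules) in 5532 to 10621 barcodes, and 5035 to 9187 cells per library were kept. Between 9 and 31 barcodes were shared by any 2 libraries. Clusters were named from marker genes and are called endothelial-like, podocyte-like and so on; the 11 endothelial markers together reached 14002 to 17539 CPM in endothelial-like cells (CPM, counts of a gene scaled to a fixed total of UMIs). Young replicate 2 stood apart: 62.5% of its cells stayed unnamed, against 6.93% to 7.77% in the other libraries, most of them in clusters with markers of several cell types, and its median of 1258 UMIs per cell compared with 2715 to 3730. Values are given in the order young replicate 1, young replicate 2, aged replicate 1, aged replicate 2 unless a sentence says otherwise, and results that rest on young replicate 2 are given with and without it.

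Among the named classes, nearly all transcripts of the domain were in endothelial-like cells. Of the Meg3 UMIs found in named classes, 6927 of 7102 (97.5%) were in endothelial-like cells, and by library the share was 99.0%, 94.8%, 98.0% and 97.2%. The share was 97.1% for Rian, 96.9% for Mirg and 99.7% for B830012L14Rik. For Dlk1 it was 6693 of 7013 UMIs (95.4%), and it was lowest in young replicate 2, with 81.2% against 96.1% to 99.7% in the other libraries. Rtl1 and Gm37899, which were not among the genes chosen, had 94.3% and 98.3% of their named-class UMIs in endothelial-like cells. With the unnamed cells counted as well, endothelial-like cells held 6927 of 7876 Meg3 UMIs (88.0%), 6693 of 8711 Dlk1 UMIs (76.8%) and 182 of 247 Rtl1 UMIs (73.7%). Young replicate 2, with most of its cells unnamed, was lowest, at 434 of 705 Meg3 UMIs (61.6%) and 674 of 1753 Dlk1 UMIs (38.4%), and the other libraries were between 73.9% and 95.7% for Meg3 and between 70.2% and 90.2% for Dlk1.

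To compare shares of cells at one depth, each cell was thinned to 1000 UMIs and shallower cells were left out (25, 114, 110 and 19 endothelial-like cells). At least 1 Meg3 UMI was then found in 7.25% (159 of 2194), 6.79% (72 of 1061), 8.76% (474 of 5414) and 10.5% (412 of 3939) of endothelial-like cells. The 95% exact binomial (Clopper-Pearson) intervals, which cover counting error only, were 6.20% to 8.41%, 5.35% to 8.47%, 8.02% to 9.54% and 9.52% to 11.5%. Among podocyte-like cells, 0 of 1753, 1 of 539, 1 of 989 and 0 of 654 had a Meg3 UMI. Mesangial-like cells had 0 of 292, 1 of 204, 1 of 676 and 0 of 518, and macrophage-like cells of aged replicate 2 had 3 of 508. The share of Meg3-positive cells in endothelial-like cells was far above the level of these classes in every library. This describes a restriction for which the genes were chosen. The median depth before thinning was 2318 to 3239.5 UMIs in endothelial-like and 4196 to 7693.5 in podocyte-like cells, so the class with the signal was the shallower one.

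**Figure D1:**
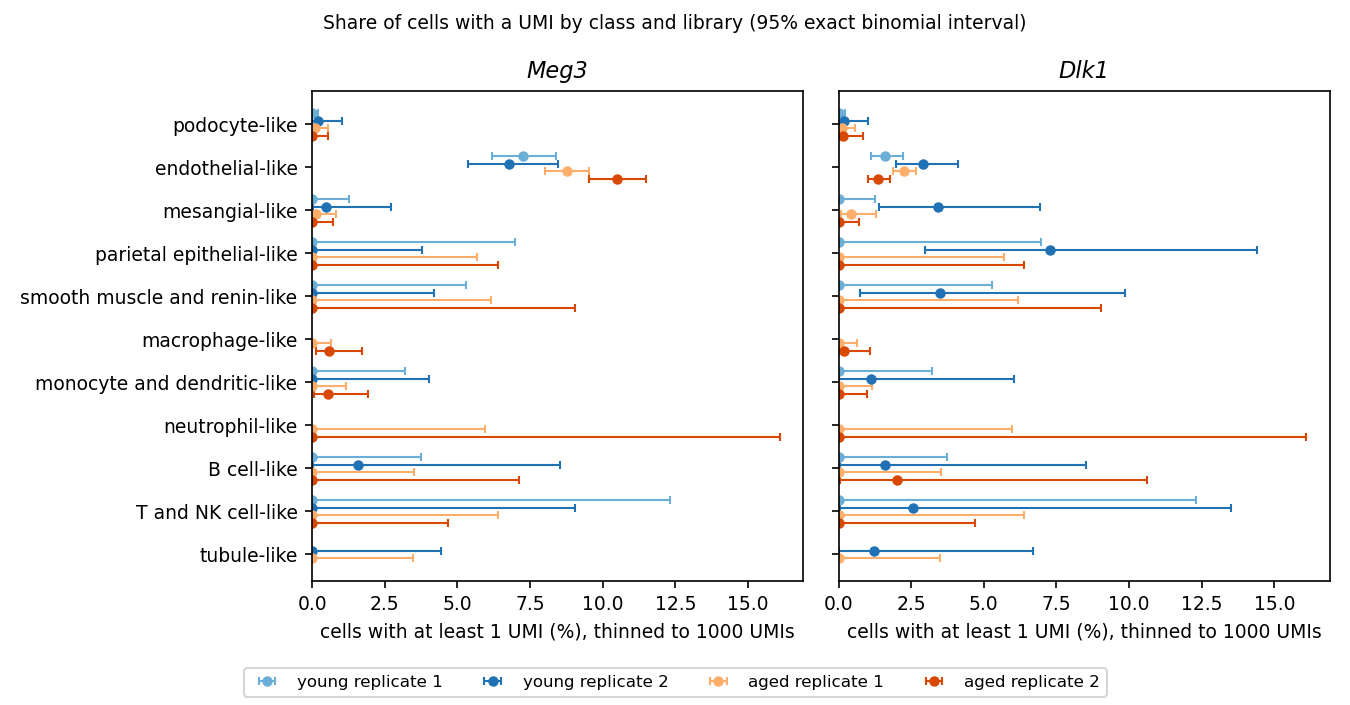
Share of cells with at least 1 UMI of Meg3 (left) or Dlk1 (right) after thinning to 1000 UMIs per cell, on the x axis in percent, by cell class (rows) and library (colours), with 95% exact binomial intervals. Endothelial-like cells stand at 6.79% to 10.5% for Meg3, and for Dlk1 young replicate 2 also has points above 3% in mesangial-like, parietal epithelial-like and smooth muscle and renin-like cells.

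Meg3, the most abundant maternal transcript, was higher in both aged libraries. In sums over endothelial-like cells it stood at 139, 116, 172 and 230 CPM, with library sizes adjusted by the TMM method. The young mean was 127 ± 16.4 (SD, n = 2) and the aged mean 201 ± 41.5 (SD, n = 2). The fitted log2 difference, aged minus young, was 0.63 with a standard error (SE) of 0.16. Thinned shares differed in the same direction, with a young mean of 7.02% ± 0.326 and an aged mean of 9.61% ± 1.21 (SD, n = 2), 2.59 percentage points apart. The 2 aged libraries also differed from each other, and with aged replicate 1 left out the log2 difference was 0.83, with aged replicate 2 left out 0.40. Positive cells held similar amounts in each library: a mean of 1.90, 1.90, 1.80 and 1.95 Meg3 UMIs per positive cell after thinning.

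Rian, the host of small nucleolar RNAs downstream of Meg3, stood at 53.9, 54.5, 54.5 and 74.8 CPM. Aged replicate 2 alone was higher, and the other libraries lay within 1 CPM of each other. The log2 difference of 0.23 (SE 0.16) became -0.02 without aged replicate 2.

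Mirg, the most distal of the noncoding RNAs and the host of 14 microRNA genes, differed most between the ages. It stood at 3.13, 1.87, 14.2 and 12.9 CPM, from 18, 7, 202 and 182 UMIs, with a young mean of 2.50 ± 0.894 and an aged mean of 13.6 ± 0.943 (SD, n = 2). The fitted log2 difference was 2.34 (SE 0.29), and it ranged from 1.92 to 2.82 over the alternatives tried. Both aged libraries were several times above both young ones, on few molecules in the young. B830012L14Rik, an uncharacterised noncoding RNA just upstream of the microRNA group, stood at 5.05, 3.20, 9.29 and 9.77 CPM, a log2 difference of 1.13 (SE 0.27).

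Dlk1, the paternal protein-coding gene, did not follow the noncoding RNAs. It stood at 138, 180, 295 and 73.6 CPM, so the highest and the lowest library were both aged. Its log2 difference of 0.18 (SE 0.33) turned to -1.13 with aged replicate 1 left out, and it was 0.87 with aged replicate 2 left out. Rtl1, the other paternal gene with counts, stood at 4.18, 8.81, 6.12 and 2.69 CPM, with overlapping groups. Gm37899 stood at 24.5, 16.8, 27.3 and 37.0 CPM, with both aged libraries above both young ones.

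**Figure D2:**
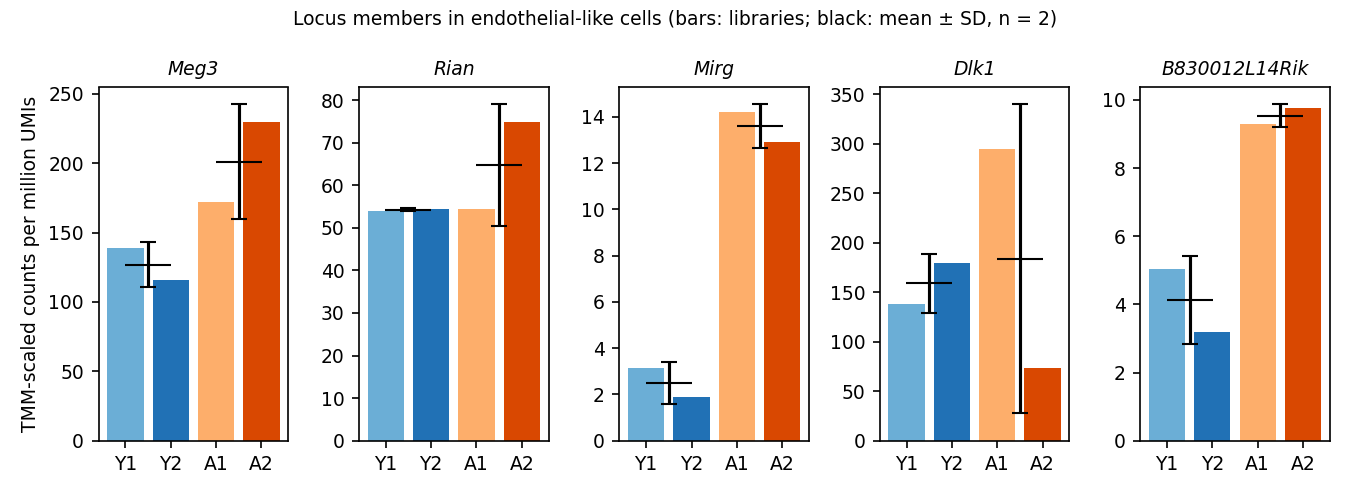
TMM-scaled CPM of the 5 genes in sums over endothelial-like cells, 1 bar per library (Y1 and Y2 young, A1 and A2 aged), with the mean and SD of each pair in black and a separate y axis for each gene. Mirg goes from 3.13 and 1.87 in the young to 14.2 and 12.9 in the aged libraries, while the 2 aged libraries hold both the highest and the lowest Dlk1 level.

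Of the 5 genes, 4 (all but Dlk1) had both aged libraries above both young ones, Rian only at the decimals; this was so for 26.9% of the 12905 genes tested in endothelial-like cells. Over all those genes 6.19% had a Benjamini-Hochberg adjusted p under 0.05 in edgeR's quasi-likelihood test and count as called; 4.18% of all genes were higher and 2.01% lower in aged libraries. The rule that chose the genes used this contrast, so nothing is read from these shares. Endothelial-like cells fell into different clusters in the 2 ages: cluster 1 had 1138, 550, 860 and 845 cells in the 4 libraries, whereas cluster 0, with Sele and Il6, genes of an inflamed endothelium, among its leading genes, had 369, 240, 2267 and 1264. Of the nuclear RNAs, Neat1 was higher in both aged than in both young libraries (1251, 1070, 1337 and 1623 CPM without TMM). Malat1 (23256, 29462, 26470 and 28142 CPM without TMM) and the median mitochondrial share (5.36%, 4.59%, 5.20% and 5.46%) overlapped between the ages. The part of these measures in the differences was not tested. In the same sums the summed mesangial markers were 35.8 and 57.5 CPM in young against 106 and 117 in aged libraries, the macrophage markers 4.56 and 17.9 against 31.4 and 31.4, and the parietal epithelial markers 416 and 411 against 754 and 521. The endothelial markers were lower in aged libraries (16550 and 17539 against 15205 and 14002 CPM), and so were the podocyte markers (928 and 1309 against 831 and 799). The part of these levels in the differences was not tested either.

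Relative to Meg3, the transcripts at the 2 ends of the noncoding group behaved differently. For every 100 Meg3 UMIs in endothelial-like cells there were 2.25, 1.61, 8.28 and 5.59 Mirg UMIs, with exact 95% intervals of 1.33 to 3.58, 0.645 to 3.35, 7.14 to 9.56 and 4.79 to 6.50. The intervals cover counting error within a library only, and as the genes were chosen with these levels known the ratios are a description. B830012L14Rik showed 3.63, 2.76, 5.41 and 4.24 per 100 Meg3 UMIs. Rian went the other way, with 38.8, 47.0, 31.8 and 32.5, and Gm37899, between Rian and B830012L14Rik, was level at 17.6, 14.5, 15.9 and 16.0. Dlk1 ranged most, at 99.4, 155, 172 and 32.0, and Rtl1 stood at 3.0, 7.60, 3.57 and 1.17. These ratios are within libraries and compare UMIs with UMIs, not levels per length.

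The ages were then set side by side within clusters, since the makeup of the class differed. The class held 6 clusters: 0, 1, 3 and 6, with the glomerular capillary markers Ehd3, Plat and Emcn, cluster 7, with the arteriolar markers Gja5, Gja4 and Fbln5, and the small cluster 23, of 76 cells. Cluster 10, led by Tspan8, Thbs2 and Fbln2, bordered the class and stayed unnamed. Not all arteriolar markers peaked in cluster 7. Over all libraries Sox17, Cxcl12 and Mgp stood at 293, 50.8 and 522 CPM there and at 487, 89.9 and 642 in cluster 10. Cluster 7 also had the highest Plvap, Igfbp3 and Vwf (202, 238 and 50.5 CPM), which were listed as markers of other vessels. The 5 genes were left out of the clustering. Mirg was higher in both aged than in both young libraries in clusters 0, 1, 3 and 6. In clusters 7 and 10 the aged values were also above the young ones, but on too few UMIs to show a difference. Cluster 23 was the exception, with 0, 58.7, 0 and 38.5 CPM from 0, 3, 0 and 8 UMIs in 9, 13, 18 and 23 cells. In cluster 0 it stood at 5.64, 0, 20.5 and 20.4 CPM (here without TMM), from 6, 0, 137 and 109 UMIs. In cluster 1 the values were 2.64, 1.43, 5.16 and 5.64, from 7, 2, 9 and 14 UMIs. In clusters 3, 7 and 10 no Mirg UMI was counted in the young libraries, and the aged ones had 2 to 36 each. In cluster 7 the aged libraries had 9 and 2 UMIs, in cluster 10 they had 3 each. The young libraries held fewer cells there (172 and 69 in cluster 7, 191 and 193 in cluster 10).

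Meg3 was higher in both aged than in both young libraries in clusters 0, 1, 3, 7 and 10. In cluster 0 it stood at 118, 92.4, 159 and 220 CPM and in cluster 1 at 159, 153, 189 and 236. The exceptions were cluster 6, with 138, 101, 127 and 199, and cluster 23, with 41.0, 392, 78.7 and 342, where young replicate 2 was the highest. Of the larger clusters, the capillary ones held the most Meg3, cluster 7 less (86.4, 29.8, 100 and 129) and cluster 10 the least (3.07, 5.35, 14.4 and 38.4). Meg3 and Rian were among the 10 leading genes of cluster 3 by fold, although neither had been used to form it. That fold was against all other kept cells, of every class. Meg3 in cluster 3 stood at 140, 189, 209 and 244 CPM, near its levels in cluster 1.

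Dlk1 was distributed unlike Meg3 within the capillary clusters. It was highest in cluster 3, with 692, 325, 532 and 150 CPM. In cluster 1 it stood at 101, 205, 72.8 and 4.43 and in cluster 0 at 79.9, 216, 304 and 60.0. The arteriolar cluster had 0, 0, 13.0 and 3.12. Aged replicate 2 was the lowest library in clusters 0, 1, 3 and 6, whereas for Meg3 it was the highest library in each of them.

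**Figure D3:**
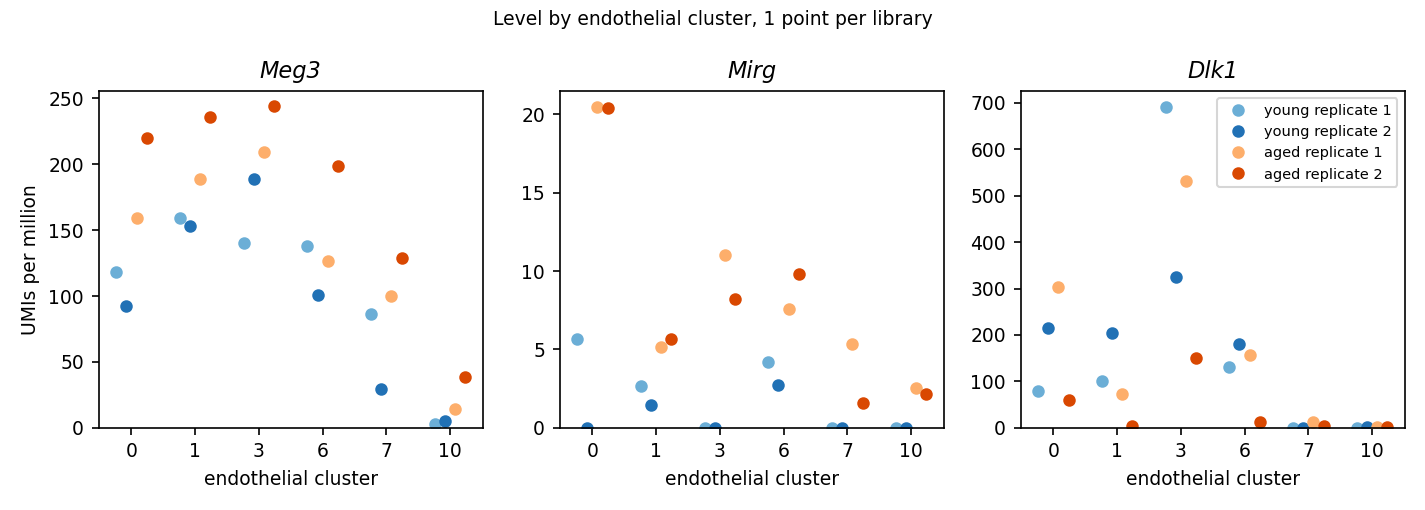
CPM (UMIs of the gene scaled to a fixed total, y axis, a separate scale for each gene) of Meg3, Mirg and Dlk1 in the endothelial clusters 0, 1, 3, 6 and 7 and in the unnamed cluster 10 (x axis), 1 point per library; cluster 23, of 76 cells, is not drawn. Aged libraries lie above young ones for Mirg in all 6 clusters drawn, though on at most 9 UMIs per library in clusters 7 and 10. Dlk1 peaks in cluster 3, at 692 in young replicate 1.

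How the transcripts were spread over cells separated Dlk1 most clearly from the rest. After thinning, 253 Dlk1 UMIs of young replicate 1 lay in 35 of 2194 endothelial-like cells, a mean of 7.23 per positive cell, and the other libraries had means of 4.68, 9.68 and 4.65. The highest count in 1 cell was 21, 16, 40 and 23 of 1000 UMIs, so Dlk1 alone could supply a few percent of a cell's molecules. Positive cells made up only 1.60%, 2.92%, 2.25% and 1.37% of the class. By the Fano factor, the variance of the counts over their mean, Dlk1 ranked 1, 2, 1 and 1 of the 3581 to 7765 genes with at least 50 UMIs. Thinned totals were 253, 145, 1181 and 251 UMIs for Dlk1 and 302, 137, 855 and 802 for Meg3. Meg3 had a Fano factor of 2.84, 2.98, 2.64 and 3.17, against 10.8, 8.21, 17.1 and 11.3 for Dlk1.

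Cells with at least 5 Dlk1 UMIs of 1000 numbered 21, 11, 79 and 16, which is 0.957%, 1.04%, 1.46% and 0.406% of endothelial-like cells. No cell of any other named class reached 5. In young replicate 2 a Dlk1 UMI was also found in 7 of 204 mesangial-like (3.43%), 7 of 96 parietal epithelial-like (7.29%) and 3 of 86 smooth muscle and renin-like cells (3.49%), at means of 1.14, 1.57 and 1.00 UMIs per positive cell. The share of Dlk1-positive endothelial-like cells in that library, 2.92%, was not above these classes, and only the number of UMIs per positive cell, 4.68, set it apart. In the other 3 libraries the share in mesangial-like cells was 0% to 0.444%. In mesangial-like sums Dlk1 stood at 1.07, 60.4, 24.5 and 6.12 CPM, and the log2 difference of -0.98 (SE 0.89) became 3.75 without young replicate 2.

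Outside the endothelial class the noncoding RNAs were near the limit of counting. Meg3 stood at 3.73, 10.9, 4.57 and 5.93 CPM in mesangial-like sums, a log2 difference of -0.44 (SE 0.49) that became 0.46 without young replicate 2. In podocyte-like sums it stood at 0.132, 0.592, 1.97 and 0.207 CPM and did not pass the expression filter. Mesangial-like cells of the 2 ages were largely different clusters, with 405 and 264 young against 28 and 19 aged cells in cluster 13 and 17 and 12 against 683 and 528 in cluster 9.

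Within single endothelial-like cells the noncoding RNAs were detected together. After thinning, a Rian UMI was found in 30.2% (48 of 159), 33.3% (24 of 72), 26.4% (125 of 474) and 34.5% (142 of 412) of Meg3-positive cells, and in 2.01%, 2.93%, 2.17% and 2.27% of Meg3-negative cells. Over the 12608 cells of the 4 libraries 339 held both, where 52.8 would be expected if the 2 genes were independent, a ratio of 6.42. Within the libraries 48, 24, 125 and 142 cells held both, where 6.45, 3.60, 20.3 and 23.2 would be expected. Mirg was found in 5.10% of Meg3-positive against 0.479% of Meg3-negative cells, B830012L14Rik in 4.74% against 0.278%, and Gm37899 in 15.5% against 0.905%. Conversely 57 of 112 Mirg-positive cells (50.9%) held a Meg3 UMI. Meg3-positive and Meg3-negative cells had similar depth before thinning, with medians of 2416 and 2319 UMIs in young replicate 1 and of 3423.5 and 3231 in aged replicate 2, and the Rian shares lay between 26.9% and 37.3% of Meg3-positive cells in clusters 0, 1, 3, 6, 7, 10 and 23.

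Dlk1 and Meg3 overlapped much less. A Dlk1 UMI was found in 2.52%, 0%, 2.74% and 3.88% of Meg3-positive cells and in 1.52%, 3.13%, 2.21% and 1.08% of Meg3-negative cells. Over all libraries 33 cells held both, where 21.4 would be expected, a ratio of 1.54. By library 4, 0, 13 and 16 cells held both, where 2.54, 2.10, 10.7 and 5.65 would be expected, so the excess was largest in aged replicate 2. Dlk1 and Rian gave a ratio of 2.19, Dlk1 and Mirg 3.26 from 7 cells.

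Rtl1, the second paternal gene and not one of the 5, was nearly confined to cells with Dlk1. It was found in 6 of 35, 4 of 31, 15 of 122 and 7 of 54 Dlk1-positive cells, together 13.2% (95% exact interval 9.22% to 18.2%), and in 4 of 12366 Dlk1-negative cells (0.0323%). Of 36 Rtl1-positive cells 32 (88.9%) held Dlk1, where 0.691 would be expected. Of the same cells 2 held Meg3, 2 held Rian and 0 held Mirg, where 3.19, 1.70 and 0.320 would be expected. No direction is read from the Rian and Mirg counts. Without thinning, 78 of 87 Rtl1-positive cells held Dlk1. The ratio of observed to expected cells was 46.3 for Dlk1 with Rtl1. For Meg3 with Rtl1 it was 0.627, from only 2 cells, and without thinning 22 cells held both where 12.1 would be expected, so no direction is read from this pair.

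**Figure D4:**
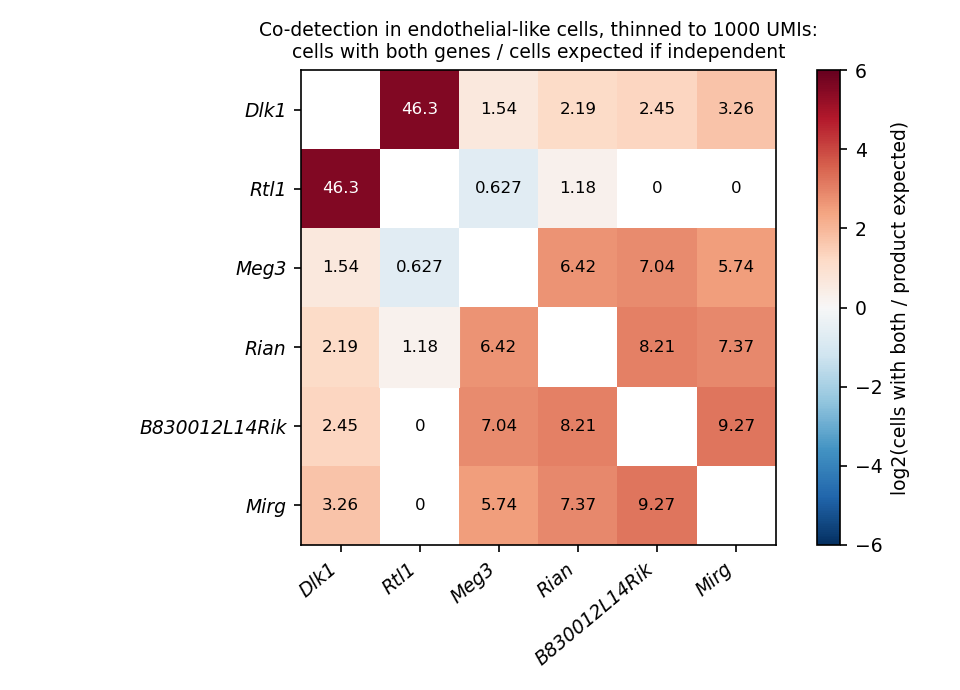
Number of endothelial-like cells (thinned to 1000 UMIs, all 4 libraries) with UMIs of both genes of a pair, divided by the number expected if the genes were independent over these cells; the ratio is printed and its log2 coloured, with pairs never seen together left white. The noncoding RNAs form a block of ratios from 5.74 to 9.27, Dlk1 with Rtl1 stands at 46.3, and Dlk1 with Meg3 at 1.54.

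What else differed between cells with and without these transcripts was tested on sums of thinned cells in each library, with the library as a term in edgeR, a comparison set up after the data had been seen. Between Meg3-positive and Meg3-negative endothelial-like cells the test called 22 of 6989 genes (0.315%). Of all genes, 7 (0.100%) passed as higher and 15 (0.215%) as lower in Meg3-positive cells. Among the 7 were Rian and B830012L14Rik, whose detection with Meg3 chose them, and Gm37899 of the same locus. Gm37899 stood at 195, 58.5, 184 and 208 CPM in Meg3-positive and 10.8, 9.89, 9.91 and 14.5 CPM in Meg3-negative cells (log2 difference 4.08, SE 0.18, edgeR adjusted p = 6.13e-30, higher in 4 of 4 libraries). Sema5a, a semaphorin, and Mical3, a flavoprotein of vesicle transport, were the next, with log2 differences of 0.46 (SE 0.10) and 1.30 (SE 0.29), both at an adjusted p of 0.0127.

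Genes lower in Meg3-positive cells included Esm1, which encodes the secreted proteoglycan endocan, at 76.6, 11.7, 55.5 and 83.7 CPM against 188, 114, 211 and 160 CPM in Meg3-negative cells (log2 difference -1.37, SE 0.16, edgeR adjusted p = 2.41e-09). Vim, the intermediate filament vimentin (log2 difference -0.80), Mgp, a matrix protein of larger vessels (-2.29), and Tgfb2 (-1.02) were lower as well. In young replicate 2, however, Tgfb2 was higher in Meg3-positive cells, at 46.8 against 40.6 CPM. Esm1 and Tgfb2 were also leading genes of cluster 7, where Meg3 was low. The Vim difference was -0.01 within cluster 0 alone and -1.34 within cluster 1 alone, and it was called in neither (edgeR adjusted p = 1.000 and 0.652). The count of called genes fell to 3 within cluster 0 and 1 within cluster 1, and to 7 without aged replicate 1 and 11 without aged replicate 2. Of 44 genes of the lists on imprinting, polycomb and microRNA processing that were tested here, 0 were called by edgeR and 5 had an unadjusted p under 0.05. Summed podocyte markers were 735 to 1361 CPM in Meg3-positive and 800 to 1387 in Meg3-negative cells.

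Dlk1-positive cells differed from their neighbours in more genes than Meg3-positive cells did, although they were fewer: edgeR called 172 of the 6342 genes tested (2.71%), of which 50 (0.788% of all) were higher and 122 (1.92%) lower. Ednrb, the endothelin B receptor, which in endothelial cells takes up endothelin and triggers nitric oxide release, stood at 1884, 1784, 1903 and 1517 CPM in Dlk1-positive and 240, 208, 374 and 339 CPM in Dlk1-negative cells. The groups were far apart in 4 of 4 libraries (log2 difference 2.70, SE 0.11, edgeR adjusted p = 1.43e-123). An Ednrb UMI was found in 166 of 242 Dlk1-positive cells (68.6%) against 20.0% of the 12366 Dlk1-negative cells. The difference was 2.81 within cluster 3 alone and 2.17 within cluster 0 alone, and it was called in each of the 8 alternatives tried.

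Hapln1, a link protein that ties hyaluronan to proteoglycans, stood at 97.9, 155, 93.1 and 70.6 CPM in Dlk1-positive and at 1.54, 0.985, 1.55 and 1.79 CPM in Dlk1-negative cells (log2 difference 6.0, SE 0.41, edgeR adjusted p = 3.99e-28). It was found in 22 of 242 Dlk1-positive cells (9.09%) and in 16 of 12366 Dlk1-negative cells (0.129%). Rtl1 stood at 147, 129, 161 and 123 CPM against 0, 3.94, 0.221 and 0.299 CPM (log2 difference 7.89, SE 0.40, adjusted p = 5.23e-52). Edil3, an extracellular matrix protein of endothelial cells, was higher as well (log2 difference 2.85, SE 0.40), as were Ramp3, a partner of the adrenomedullin receptor (1.27, SE 0.17), Btnl9 (2.01, SE 0.36), Gpihbp1, which carries lipoprotein lipase to the capillary lumen (0.94, SE 0.14), and Igfbp5 (0.66, SE 0.08). Peg3, a paternally expressed gene of another imprinted domain, stood at 48.9, 103, 50.8 and 17.6 CPM against 13.8, 15.8, 10.4 and 9.56 CPM (log2 difference 2.26, SE 0.52, edgeR adjusted p = 0.00110). The Peg3 levels rest on few molecules in the 242 Dlk1-positive cells. Rtl1 and Peg3 were the 2 genes called among 42 tested of the fixed lists.

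Lower in Dlk1-positive cells were Tm4sf1, a tetraspanin-like protein of endothelial cells (636, 491, 1024 and 917 CPM against 2660, 2222, 3062 and 2455 CPM; log2 difference -1.56, SE 0.12, edgeR adjusted p = 8.73e-37), the flow-responsive factor Klf2 (-0.87), the inhibitor of NF-kappaB Nfkbia (-0.96), the chemokine Cxcl10 (-1.21) and Esm1 (-3.42, with 0, 0, 33.8 and 0 CPM in Dlk1-positive cells). Meg3 stood at 196, 0, 228 and 494 CPM in Dlk1-positive against 151, 135, 183 and 231 CPM in Dlk1-negative cells, and Rian at 0, 77.6, 186 and 212 CPM against 55.4, 65.0, 59.4 and 80.7 CPM. Each was higher in 3 of 4 libraries. Their detection with Dlk1 was among the features by which the genes were chosen, so these values carry no test. Dlk1-positive cells were deeper before thinning in every library, with medians of 2601, 3479, 3303.5 and 3989 UMIs against 2320, 2887.5, 2377 and 3240, while the sums compared hold 1000 UMIs from every cell. Summed podocyte markers were 593 to 1226 CPM in Dlk1-positive and 796 to 1390 in Dlk1-negative cells, and the 11 endothelial markers summed to 13722 to 17743 and 13988 to 17590. The count of called genes was 84 without aged replicate 1, 105 without aged replicate 2, 32 within cluster 3 alone and 5 within cluster 0 alone. Dlk1-positive cells numbered 3, 8, 64 and 17 in cluster 0 and 11, 4, 37 and 27 in cluster 3. In cluster 7, of which Esm1 was a leading gene, they numbered 0, 0, 3 and 0. The part of cluster makeup in the Esm1 difference was not tested.

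**Figure D5:**
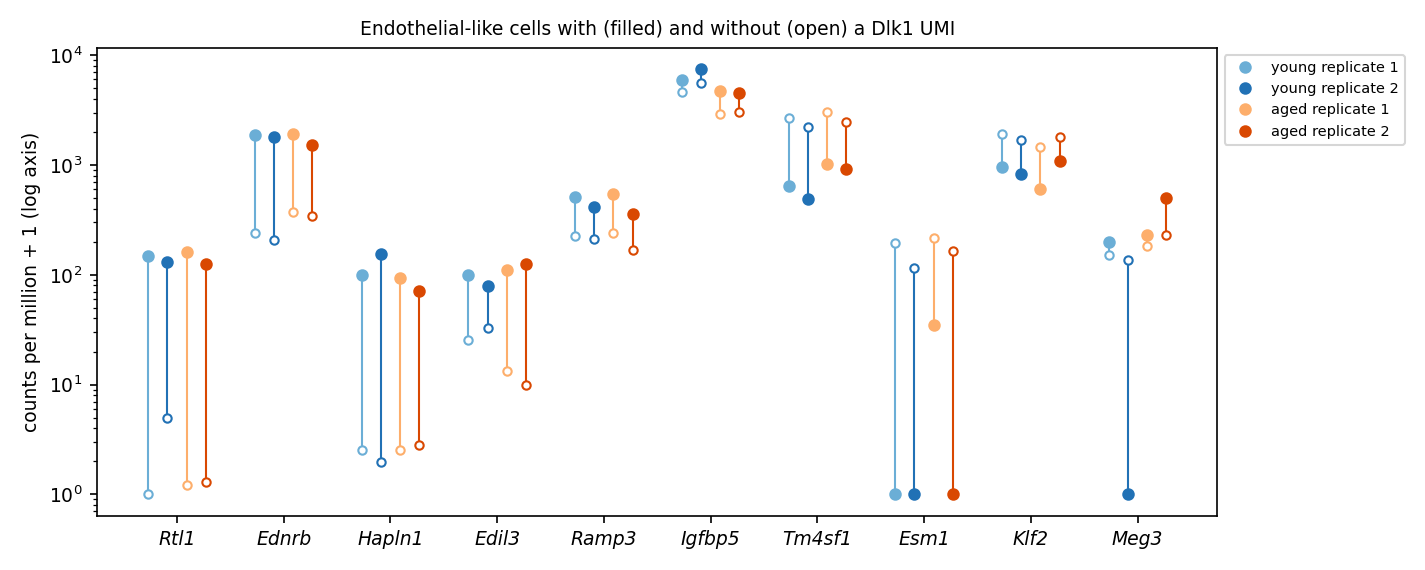
CPM plus 1 (log y axis) of 10 genes in endothelial-like cells with a Dlk1 UMI (filled) and without one (open), joined for each library by a line. Ednrb, Rtl1 and Hapln1 are higher with Dlk1 in all 4 libraries, Tm4sf1, Esm1 and Klf2 lower, and Meg3 differs in direction between libraries.

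Genes around the locus and genes that act on imprints were then compared between the ages. In endothelial-like cells 69 genes of the 4 lists were tested and 1 was called by edgeR's quasi-likelihood test, where 6.19% of all 12905 genes were; 12 of the 69 and 2335 of all genes had an unadjusted p under 0.05. It was Dnmt3a, the de novo DNA methyltransferase, which stood at 35.5, 52.6, 28.5 and 30.3 CPM (log2 difference -0.59, SE 0.17, adjusted p = 0.0408); without young replicate 2 the difference was -0.29 and was not called. None of the 11 tested neighbours was called (2 at an unadjusted p under 0.05), none of 25 other imprinted genes (3) and none of 12 genes of microRNA processing (2), and DESeq2 called 0 genes of each list. Yy1, from the list of neighbours, stood at 261, 249, 272 and 266 CPM. Ezh2, the methyltransferase of polycomb repressive complex 2, stood at 19.3, 23.0, 31.3 and 30.4 CPM (log2 difference 0.53, SE 0.17, adjusted p = 0.0706). Dicer1, which cuts microRNA precursors, stood at 40.4, 40.8, 39.8 and 40.3 CPM, and Dio3 had no UMI in endothelial-like cells. The median log2 differences of the lists were 0.05, -0.14, -0.05 and -0.12 for neighbours, imprinted genes, polycomb and imprint maintenance, and microRNA processing, beside -0.01 over all genes tested.

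Imprinted genes of other domains were called in the other classes, in counts that depended on the processing. In podocyte-like cells 4 of 20 tested imprinted genes were called, 2 higher and 2 lower, where 5.58% of all 10868 genes were (3.74% higher, 1.84% lower). Zdbf2, a paternally expressed zinc finger gene, stood at 6.21, 4.44, 0.179 and 0.415 CPM (log2 difference -4.15, SE 0.60, edgeR adjusted p = 3.30e-05), both aged libraries being near the limit of counting. Peg3 was lower (18.4, 27.2, 12.7 and 10.8 CPM, log2 difference -0.89, adjusted p = 0.0120), and Ndn, which encodes necdin, was higher (10.3, 6.21, 16.1 and 15.3 CPM, log2 difference 0.85, adjusted p = 0.0282). Snrpn was higher too (log2 difference 0.75, adjusted p = 0.0360), but shares its transcript with Snurf and is uncertain. Tet1, which oxidises methylated cytosine, was the 1 gene called of 18 in the list on polycomb and imprint maintenance (log2 difference -0.95, adjusted p = 0.0263). DESeq2 called 1 of these 5 genes. In edgeR none of the 5 was called with cells named one by one or mixed cells kept, where Zdbf2 had adjusted p of 0.0578 and 0.0749 and log2 differences of -4.02 and -3.94, and no listed gene was called after thinning. Peg3 was not called without aged replicate 2, Tet1 without either aged library, and Ndn and Snrpn without either aged library or without 1 of the young ones.

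In mesangial-like cells 4 of 21 imprinted genes were called, 1 higher and 3 lower, where 6.80% of all 10856 genes were (4.22% higher, 2.58% lower). Dcn, which encodes the matrix proteoglycan decorin, stood at 4.80, 1.46, 33.4 and 50.9 CPM (log2 difference 3.59, SE 0.41, edgeR adjusted p = 4.59e-04). Peg3 stood at 28.3, 32.0, 11.2 and 9.18 CPM (log2 difference -1.61, adjusted p = 0.00397), so that it was lower in aged libraries in both classes. Ano1, a calcium-activated chloride channel, was lower (243, 258, 124 and 137 CPM, log2 difference -0.99, adjusted p = 0.00290), and so was the cell cycle inhibitor Cdkn1c (90.7, 208, 73.2 and 46.3 CPM, log2 difference -1.36, adjusted p = 0.0304). Cdkn1c is also a podocyte marker, and the summed podocyte markers in the same sums were 474, 975, 344 and 296 CPM; without young replicate 2 its difference was -0.64 and was not called, and neither were Peg3 (-1.51) and Ano1 (-0.93). Tet1 (-2.10, adjusted p = 0.0201) and the microRNA effector Tnrc6b (-0.84, adjusted p = 0.0101) were the genes called of 18 and 12 in their lists, and neither was called with either young library left out. Of these 6 genes DESeq2 called 5, and the count of listed genes called was 3 with cells named one by one and 2 with mixed cells kept or after thinning. Dcn and Ano1 are known as imprinted mainly in the placenta. As the clusters of the 2 ages differed in this class, these values compare clusters 13 and 9 as much as ages.

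Across classes, Meg3 was most like genes that were higher in endothelial-like than in podocyte-like and mesangial-like cells. Over 39 sums of a named class in a library, and among 11695 genes, the genes most like it by Pearson's correlation of log2(CPM + 1) were Ushbp1 (0.908), Ces2g (0.891), Ackr2 (0.868), Gata5 (0.866), Pcdh17 (0.865), Ifi44 (0.859), Ripply3 (0.859) and Sox18 (0.858). Rian was at rank 3 with 0.878 and Dlk1 at rank 53 with 0.783. The sums of 1 library share its depth. The correlations describe mainly how far a gene is restricted to endothelial-like cells, a feature for which Meg3 was chosen.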

How the data were processed

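The authors deposited 1 matrix of raw UMI counts per gene and barcode for each library, with no normalization. Per the labels' protocols, cells were captured with a 10x 3' kit (version 3.1), about 8000 cells were aimed at per sample, and reads went through Cell Ranger 3.1.0 to GRCm38; the file headers and the submitters' processing notes name Cell Ranger 6.0.1, and which made the counts is not settled. The notes also name Partek, in a role not given in the sources used here. The libraries held 22398650, 18457791, 41697199 and 42046542 UMIs.

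Barcodes with under 500 genes or over 20% mitochondrial UMIs were dropped. Scrublet scores (scanpy 1.11.5) were used against doublets; the automatic threshold took only 0.449%, so the highest scores were removed instead, at 0.8% per 1000 barcodes (1876 barcodes, 6.28%), which left 28000 of 33323. Clusters (26) came from leidenalg 0.10.2 at resolution 1, with 2000 variable genes, 30 components and 15 neighbours, no integration, and the 5 genes left out. A cluster took the class with the highest marker level if that was at least 0.35 of the best cluster's, with at least 3 markers found in at least 10% of cells; clusters with an unrelated class at 0.2, and cells at 0.5, stayed unnamed. These levels were chosen with the clusters in view. Of 52636 gene IDs, 52489 matched GENCODE vM21.

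UMI counts were summed per class and library (at least 20 cells) and tested with the quasi-likelihood test of edgeR 4.0.16 in R 4.3.3 (TMM, default expression filter, age as the only term, Benjamini-Hochberg adjustment, threshold 0.05). DESeq2 1.42.0 was an alternative. Other alternatives were size factors, no filter, each library left out, a replicate block, other depths of thinning, cells named one by one, mixed cells or doublets kept, another resolution and the 5 genes kept in the clustering. Cells with and without a Meg3 or Dlk1 UMI were compared over thinned sums with the library as a term. In simulated data with known changes, edgeR recovered 88 of 100 2-fold and 100 of 100 4-fold changes for the endothelial age comparison. It recovered 67 and 98 for the Meg3 split and 20 and 71 for the Dlk1 split. False calls numbered 4, 5 and 3. The changed genes were drawn only from those above the median level, so recovery at lower levels was not measured. Every gene had the same dispersion, and differences between libraries other than size were not simulated. Intervals are exact binomial ones, and SEs are the log2 difference over the square root of F.

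The 5 genes and all lists were chosen with earlier results of these data known. The genes named are these 5, the called genes of the lists (at most 6 per list and class by p), and the 8 most like Meg3. Genes named in the comparisons of positive with negative cells, and uncalled list genes, were chosen after their values were seen, as were Rtl1, Gm26945 and Gm37899, which passed 100 UMIs. Dio3os is not analysed here.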

Additional observations from a re-analysis of the deposited data

How the results depend on the processing

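Mirg, B830012L14Rik and Meg3 kept a positive endothelial difference in every alternative that gave a value; Rian and Dlk1 did not. The Meg3 difference was 0.40 to 0.83 with 1 library left out and 0.61 with the replicate block; in mesangial-like cells it was -1.10 to 0.46, -1.88 with mixed cells kept and -0.45 with the block, and it could not be fitted in podocyte-like cells, nor in mesangial-like cells after thinning. The Meg3 share difference was 1.74 to 3.44 points with 1 library left out, 4.74 unthinned and 4.23 at 2000 UMIs. The Rian share in Meg3-positive cells, a mean of 31.09% over libraries, was 29.96% to 32.66%, 55.72% unthinned, 19.95% at 500 and 47.96% at 2000 UMIs. The 799, 738 and 606 genes called in endothelial-like, mesangial-like and podocyte-like cells became 501 to 877, 120 to 1753 and 301 to 1223 with 1 library left out, 451, 428 and 258 with DESeq2, and 169, 164 and 86 with cells named one by one. Without the filter, endothelial calls were 0 (2335 genes had an unadjusted p under 0.05 in the main edgeR fit) and mesangial calls 1323. With mixed cells kept, mesangial calls were 378 and podocyte calls 84; after thinning they were 195 and 181. The listed genes called (1, 6 and 5) became 0 to 5, 1 to 11 and 1 to 7 with 1 library left out. Endothelial ones were 0 with DESeq2, no filter, cells one by one, mixed cells kept or the 5 genes kept in the clustering, and 3 with doublets kept. Mesangial ones were 3 with cells one by one and 2 with mixed cells kept or thinning. Podocyte ones were 1 with DESeq2 and 0 with cells one by one, mixed cells kept or thinning. The 22 genes of the Meg3 comparison became 7 to 32 with 1 library left out, 50 without a filter, 3 in cluster 0 and 1 in cluster 1; the 172 of the Dlk1 comparison became 84 to 126, 5 in cluster 0 and 32 in cluster 3. Within cluster 0 the Jun difference between Meg3-positive and Meg3-negative cells turned to -0.01 and that of Fabp4 to 0.00; within cluster 1 they were 0.23 and -0.23, as in the whole class in direction (0.18 and -0.38) and not called. The cause of these changes was not tested.

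Same-numbered replicates were not paired, as the correlations of their deviations were 0.08, 0.01 and 0.06. With the replicate block 987, 1331 and 843 genes were called in the 3 classes, and 2, 9 and 5 listed genes.

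Depth limits the genes with few UMIs: in the young endothelial-like cells Mirg rests on 18 and 7 UMIs and B830012L14Rik on 29 and 12.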

Other observations

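Further genes set Dlk1-positive cells apart. Collagen IV chains were higher in Dlk1-positive endothelial-like cells, with Col4a1 at a mean of 492 CPM against 379 CPM (log2 difference 0.57, SE 0.15, edgeR adjusted p = 0.0121) and Col4a2 at 434 CPM against 250 CPM (log2 difference 1.00, SE 0.17, adjusted p = 1.12e-06), each in 4 of 4 libraries. The cytokine gene Il1a was found in 16 of 242 Dlk1-positive cells (6.61%) and in 102 of 12366 Dlk1-negative cells (0.825%), and Edil3 in 9.92% against 1.33%. Bmp2, a morphogen, was higher in 3 of 4 libraries (log2 difference 2.26, SE 0.44, adjusted p = 4.87e-05). The transmembrane gene Plxdc1 stood at a mean of 23.3 CPM against 2.85 CPM (log2 difference 3.07, SE 0.63, edgeR adjusted p = 0.00919), on few molecules in the Dlk1-positive cells. Genes lower in Dlk1-positive cells included Cyp26b1, which breaks down retinoic acid (log2 difference -1.43, SE 0.19), Ly6c1 (-0.85, SE 0.11) and Ntn4, a netrin (-1.55, SE 0.21). Cyp26b1 and Ntn4 were also leading genes of cluster 1, where 16, 13, 10 and 4 of 1124, 491, 801 and 832 thinned cells held Dlk1. The part of cluster makeup in their differences was not tested. All genes of this paragraph were chosen after their values were seen.

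Unnamed cells enter no sum of a named class, though cluster 10 among them was described above. In unnamed cells Meg3 ranged from 24.3 CPM in aged replicate 1 to 82.7 CPM in young replicate 1. Dlk1 ranged from 26.7 CPM in aged replicate 2 to 136 CPM in young replicate 2.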
